A study of Ceratopteris richardii with 9 samples.

Results

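The 200 transcripts described here were abundant in both segments of the Ceratopteris root and scarce in the shoot. They were chosen from a table of 28952 transcripts of the young sporophyte of the fern Ceratopteris richardii, cultivar Hn-n. RNA was sequenced at 45 days after fertilization from the root tip (RT), the root without its tip (differentiated root, DT) and the leaves with the stem (shoot, SH). Each segment had 3 libraries, stated to be independent biological replicates, and each library pooled tissue from several plants or roots. All plants shared genotype, age and medium, so the segments were the only groups compared, and each was a mixture of cell types.

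Members were chosen by their levels in CPM, the estimated count of a transcript divided by the total of its library and scaled up by the usual constant. A mean of at least 5 CPM in the RT and in the DT was required, which 14876 transcripts reached. A score was then formed as the lowest CPM of the 6 root libraries over the highest CPM of the 3 SH libraries, with 0.5 added to each. A score of at least 4 was reached by 384 transcripts, and the 200 largest scores were kept. The low SH level of every member is therefore how it was chosen and is given as a description. The rule said nothing about which root segment should be higher, and the RT against DT comparison is the one that was tested. The score did use the RT and DT levels, through the lowest of them. The other transcripts set beside the members below were not chosen for a low SH level. The part of the rule in the split between RT and DT was not tested.

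Roots anchor the plant and take up water and mineral ions. In ferns such as Ceratopteris they grow from an apical cell at the tip, whose daughters divide to form the root tissues and the root cap. Behind the tip, cells stop dividing, elongate and differentiate into epidermis, cortex, endodermis and vascular tissue. Bulk RNA does not show which of these tissues a transcript came from. Fewer cells of a type and less RNA per cell likewise cannot be told apart in these data.

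The table carries transcript numbers of a transcriptome assembled from these libraries, with no gene names and no genome coordinates. The study pairs some transcripts with a gene family, and 31 such labels could be read and were used here, which is not the full list. Of these 31, the PIN transcript38379 was the one among the 200 members. The other members are given by number alone, no function is assigned to them, and the tissue labels could not be checked against marker genes.

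Library totals ranged from 20065804 to 27376687 counts. Members took 1.57% to 2.39% of the counts of each root library, and 0.0410% to 0.0575% of the counts of each SH library. Their mean level over the 6 root libraries had a median of 48.6 CPM, from 6.35 to 1689 CPM. It exceeded 100 CPM for 48 members and lay under 10 CPM for 3. In the SH, the mean level was under 1 CPM for 111 members and at least 5 CPM for 17. No member was at 0 counts in all 3 SH libraries, and 8 had 0 counts in at least 1 of them. As a share of the root mean, the SH mean had a median of 1.57% and ranged from 0.280% to 10.9%. These shares use library totals. The TMM factors used for the tests averaged 0.825 in the SH, 1.10 in the DT and 1.11 in the RT. On that scale SH levels are higher relative to the root.

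**Figure D1:**
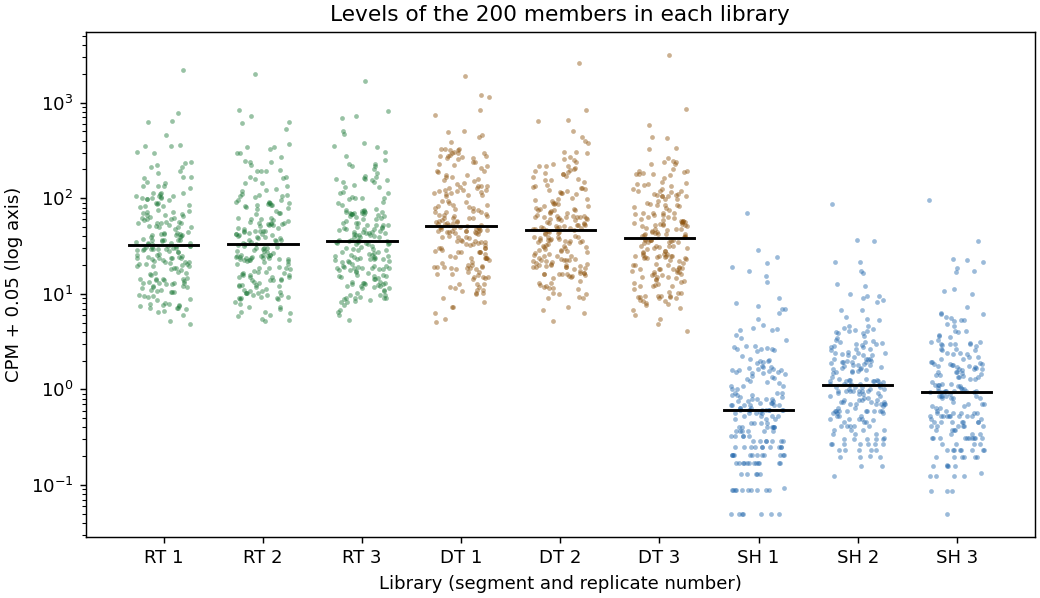
CPM of the 200 members in each of the 9 libraries on a log axis, with 0.05 added to each value. Each point is a member and each black line the median of a library, which lay between 32.5 and 50.7 CPM in the root libraries and between 0.553 and 1.06 CPM in the SH libraries.

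The largest score, 37.6, belonged to transcript114477. It had 135, 122 and 156 CPM in RT replicates 1 to 3, 167, 130 and 146 CPM in the DT and 2.77, 2.59 and 1.91 CPM in the SH. Its RT and DT libraries overlapped. The next was transcript90719, at 73.3, 85.0 and 52.9 CPM in the RT, 78.6, 50.1 and 38.8 CPM in the DT and 0.0790, 0.694 and 0.330 CPM in the SH. Its SH levels were uneven, with replicate 2 the highest.

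The other 8 of the 10 highest scores (transcript115883, transcript104606, transcript120536, transcript47385, transcript152060, transcript152484, transcript35182 and transcript27714) ran from 31.0 down to 21.2. Their mean levels lay between 28.7 and 141 CPM in the RT, between 32.7 and 134 CPM in the DT and between 0.199 and 1.80 CPM in the SH. None of these 10 passed the test between RT and DT. A transcript far lower in one root segment had to be very abundant in the other, or nearly absent from the SH, to score so high, so this evenness follows in part from the score.

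At the other end, transcript22785 and transcript133917 were the last members kept, with scores of 6.52 and 6.51. Just outside the limit, transcript35221 and transcript3649 had scores of 6.49 and 6.48. The lowest score that passed the rule before the limit was 4.00, and transcript127816 and transcript84143, at 3.998 and 3.997, fell just short of it. These values differ by far less than the spread between libraries, so both borders of the set are arbitrary.

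The rule was also tried on libraries that had not chosen the transcripts. When it was applied to replicates of 2 numbers only, and the score of the resulting 200 transcripts was taken in the RT, DT and SH libraries of the remaining number, 199, 197 and 196 of them reached a score of 4 with replicates 1, 2 and 3 held out. Their median score in the held-out libraries was 19.4, 13.5 and 14.3. Each is a score over 1 library per segment, with no lowest or highest of several, so it cannot be set against the scores of the members. A score of 4 is easier to reach in this form. The 200 transcripts were also the largest scores of 421, 444 and 488 that passed. The counts that reached 4 are therefore a description and no test of the rule. The lowest held-out score was 2.15, with replicate 3 held out. Of these 200, 185, 175 and 169 were among the members chosen on all libraries, and the others were not members.

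The RT against DT comparison asks whether the transcripts of the root that are scarce in the shoot are level along the root. In edgeR's quasi-likelihood test over all 28952 transcripts, with Benjamini-Hochberg adjustment, 77 members were higher in the DT and 44 were higher in the RT at an adjusted p of at most 0.05, while 79 did not pass. The same calls were made for 27.9% of all transcripts in the direction of the DT and 29.9% in the direction of the RT. Among the 14876 transcripts with at least 5 CPM in both root segments they were 29.8% and 33.0%. The share of members that differed in either direction, 60.5%, was close to the 62.8% among those transcripts and the 57.8% among all. The members thus passed the test between the zones about as often as other transcripts of the root. They stood apart in the split by direction: 38.5% of members were higher in the DT and 22.0% in the RT. The size of the differences, given below, also set them apart from the transcripts at 5 CPM.

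The lean towards the DT was found among the larger differences. By at least 2-fold, 69 members were higher in the DT, 34.5% of them against 16.8% of transcripts at 5 CPM and 20.6% of all. In the other direction 35 members were at least 2-fold higher in the RT, 17.5% against 17.6% and 21.0%. By at least 4-fold, 35 members were higher in the DT, 17.5% against 5.65% at 5 CPM and 11.5% of all, and 15 were higher in the RT, 7.50% against 3.83% and 8.62%. The log2 fold change of RT over DT had a median of -0.30 over members, 0.04 over transcripts at 5 CPM and 0.07 over all transcripts. Its absolute value had a median of 1.12 over members and 0.70 over transcripts at 5 CPM. All 3 DT libraries lay above all 3 RT libraries in 81 members, 40.5% against a background of 31.2% at 5 CPM and 28.7% over all transcripts. The reverse held in 50 members, 25.0% against 36.0% and 33.0%.

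**Figure D2:**
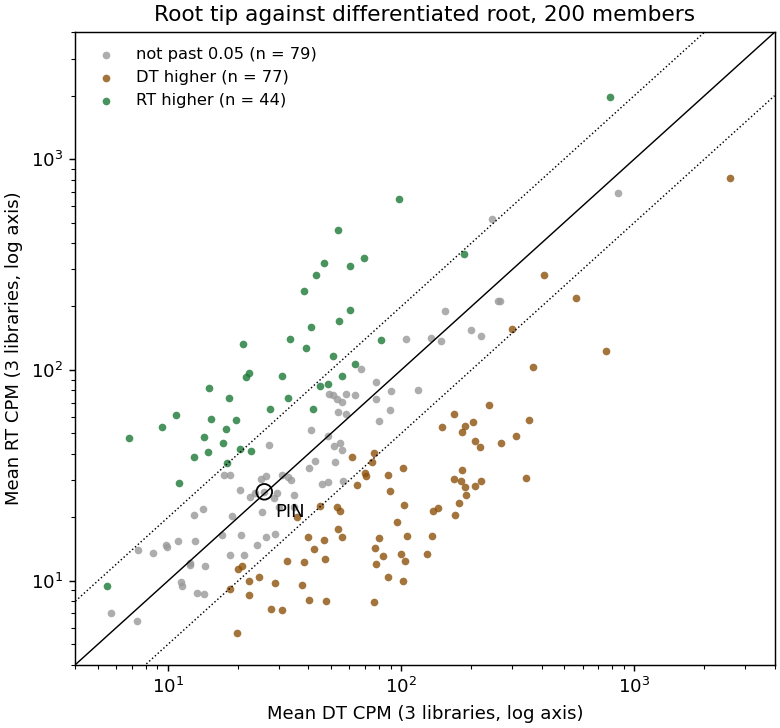
Mean RT CPM against mean DT CPM of the 200 members, both on log axes, coloured by the call of edgeR's quasi-likelihood test. The solid line marks equal levels and the dotted lines 2-fold differences, and 77 members were called higher in the DT, 44 higher in the RT and 79 neither.

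A p above the threshold does not show that a transcript was level, so the 95% interval of the difference was used as well. It lay wholly within 2-fold in either direction for 35 members, or 17.5%, against 41.2% of transcripts at 5 CPM and 23.7% of all. Of the 79 members that did not pass the test, 33 had such an interval and 46 did not. Members varied more between libraries of a segment than other transcripts did. The coefficient of variation had a median of 28.9% in the DT and 22.4% in the RT, against 12.0% and 15.7% among transcripts at 5 CPM. The part of this wider spread in the low share of members within 2-fold was not tested. A level course within 2-fold was bounded for 35 of the 200 members, so the set is named here by its rule and not as one that is level along the root.

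**Figure D3:**
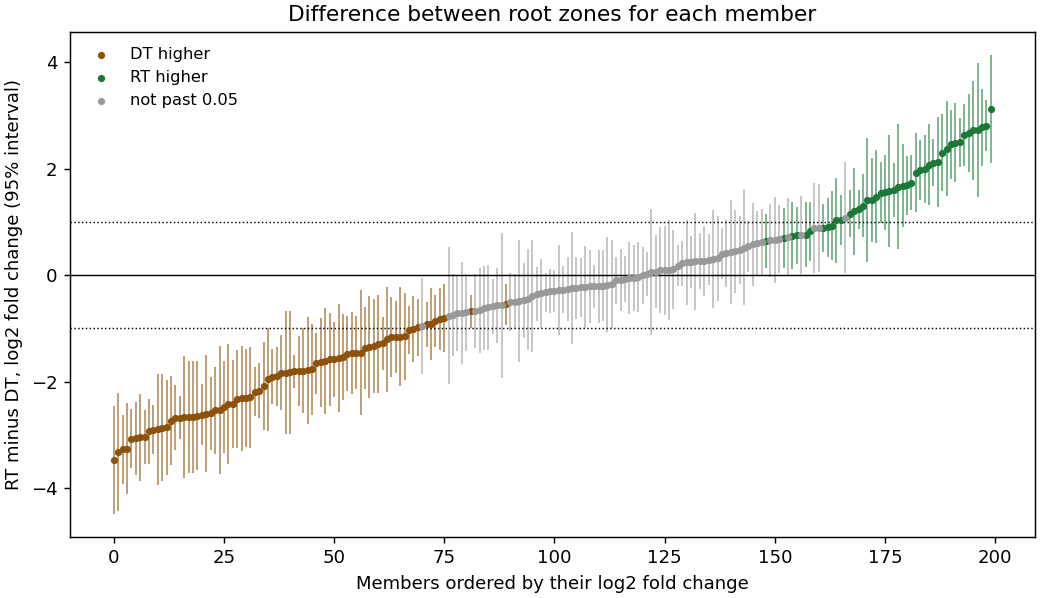
Log2 fold change of RT over DT of each member, ordered by its value, with 95% intervals from edgeR's fit. Values ran from -3.47 to 3.13, and the dotted lines mark a 2-fold difference in either direction.

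The most level members, those whose interval reached least far from 0, were transcript38379, transcript87931, transcript114477, transcript99397 and transcript52087. transcript99397 had 49.5, 53.8 and 42.6 CPM in the RT, 45.1, 53.9 and 46.5 CPM in the DT and 1.54, 3.98 and 2.97 CPM in the SH. The RT and DT libraries overlapped, and the log2 fold change was -0.0048 with a 95% interval from -0.54 to 0.53. transcript52087 had 76.2, 96.7 and 89.5 CPM in the RT against 75.9, 78.0 and 79.1 CPM in the DT, a log2 fold change of 0.18 with an interval from -0.21 to 0.56. For transcript87931 the interval ran from -0.50 to 0.36, and for transcript114477 from -0.53 to 0.34.

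The PIN transcript38379 was the 64th by score. PIN proteins are membrane carriers that export auxin from cells, and in Arabidopsis they route this hormone through the root and its tip. The transcript had 29.9, 24.3 and 25.1 CPM in RT replicates 1 to 3 and 29.0, 28.7 and 19.9 CPM in the DT. In the SH it had 0.711, 1.13 and 0.880 CPM, so that every root library was far above every SH library. The RT and DT libraries overlapped, with means of 26.4 ± 3.05 and 25.9 ± 5.20 CPM (SD, n = 3). The log2 fold change of RT over DT was 0.02 with a standard error of 0.18 and a 95% interval from -0.39 to 0.43, which reached least far from 0 of all members, and edgeR's adjusted p was 0.943. Its label was read from a picture of low resolution and is less certain than a printed one.

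Among the other labelled transcripts that could be read, 17 did not reach 5 CPM in both root segments and 12 did but scored under 4. The remaining one, the ARF10/16 transcript75969, passed the rule and was the 208th by score at 6.30, just outside the limit. ARF proteins are transcription factors of the auxin response, and in Arabidopsis ARF10 and ARF16 act in root cap development. It had 20.2, 13.7 and 14.4 CPM in the RT, 21.5, 26.7 and 24.6 CPM in the DT and 1.76, 0.929 and 1.37 CPM in the SH. All DT libraries lay above all RT libraries, and the log2 fold change was -0.62 with a standard error of 0.23 (edgeR's adjusted p = 0.0452). That call was not stable: without DT replicate 2 the adjusted p was 0.140, without DT replicate 3 0.0961, without RT replicate 2 0.127, without RT replicate 3 0.0845 and without SH replicate 3 0.0645, and over all alternatives it lay between 0.00337 and 0.140. Its estimated counts were not whole in any of the 9 libraries, so part of its reads was divided with similar transcripts, and its label too came from the picture of low resolution. All transcripts read as labelled members of the CYCD and RBR cell cycle regulators, of the SCR, SHR, SCL28, WOX and SMB transcription factors and of the ACR4 and related receptor kinases were outside the set, as were the remaining PIN and ARF10/16 transcripts whose labels could be read. Further transcripts of these families were not analysed by name here.

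Among members higher in the DT, transcript74174 had the largest difference. It had 27.2, 29.9 and 35.3 CPM in the RT, 493, 299.9 and 238 CPM in the DT and 0.830, 3.25 and 1.03 CPM in the SH. The groups did not overlap, and the DT was 11.1-fold above the RT (log2 fold change -3.47, standard error 0.45, edgeR's adjusted p = 0.000142). transcript3529 had 8.72, 6.97 and 14.4 CPM in the RT and 158, 83.2 and 63.9 CPM in the DT (log2 fold change -3.33, edgeR's adjusted p = 0.000327), and was at 0 counts in SH replicate 1 with 0.365 and 0.257 CPM in the others. In both transcripts DT replicate 1 was the highest library by a wide margin.

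For transcript140688 the DT libraries were closer together, at 134, 199.6 and 178 CPM, against 23.6, 22.9 and 15.2 CPM in the RT (log2 fold change -3.07, standard error 0.25, edgeR's adjusted p = 8.29e-06). The others of the 5 largest were transcript103687, at 12.8, 10.1 and 17.2 CPM in the RT and 194, 112 and 81.7 CPM in the DT, and transcript103688, at 8.47, 6.35 and 8.94 CPM in the RT and 113, 63.6 and 52.9 CPM in the DT. These 2 carry neighbouring numbers and had nearly the same fold change, with the DT 9.61-fold and 9.66-fold above the RT.

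Among members higher in the RT, transcript4007 had the largest difference. It had 352, 528 and 511 CPM in the RT, 68.1, 52.1 and 41.1 CPM in the DT and 0.594, 3.37 and 2.51 CPM in the SH. The RT was 8.72-fold above the DT with no overlap (log2 fold change 3.13, standard error 0.45, edgeR's adjusted p = 0.000265). Its estimated counts were not whole in any library. transcript94508 had 359, 298 and 307 CPM in the RT and 48.7, 50.2 and 40.5 CPM in the DT (log2 fold change 2.78), and transcript124487 had 242, 328 and 279 CPM in the RT and 65.4, 42.7 and 20.8 CPM in the DT (2.73). The DT spread of transcript124487 was wide, yet its RT and DT libraries stayed apart.

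The neighbouring transcript122681 and transcript122682 completed the 5 largest. transcript122681 had 44.3, 50.8 and 47.7 CPM in the RT, 8.09, 6.23 and 5.97 CPM in the DT and 0.158, 0.256 and 0.367 CPM in the SH, with the RT 7.03-fold higher. transcript122682 was more abundant, at 639, 611 and 688 CPM in the RT and 129, 94.7 and 69.7 CPM in the DT, with the RT 6.60-fold higher. They were thus alike in their course along the root and far apart in level.

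**Figure D4:**
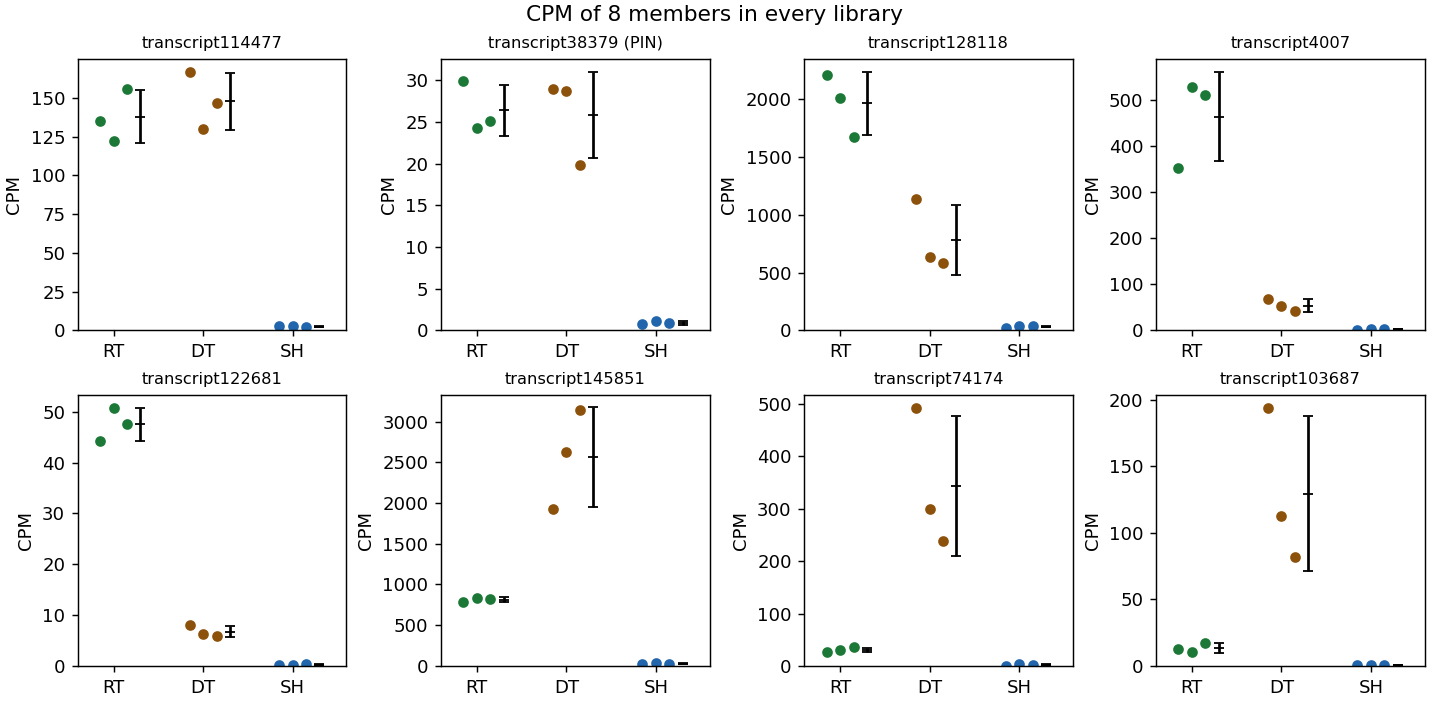
CPM of 8 members in every library, with points for replicates 1 to 3 from left to right and an error bar for the mean and SD of each segment (n = 3). transcript114477 and the PIN transcript38379 were level between RT and DT, transcript128118, transcript4007 and transcript122681 were higher in the RT, and transcript145851, transcript74174 and transcript103687 were higher in the DT.

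The 5 most abundant members were transcript145851, transcript128118, transcript133917, transcript126372 and transcript139997. transcript145851 had 781, 837 and 826 CPM in the RT, 1923, 2626 and 3138 CPM in the DT and 28.5, 36.7 and 22.8 CPM in the SH, and was 3.15-fold higher in the DT (edgeR's adjusted p = 0.000403). Here DT replicate 1 was the lowest of its segment, the opposite of most members. transcript128118 had 2212, 2007 and 1671 CPM in the RT, 1134, 639 and 584 CPM in the DT and 24.4, 35.8 and 35.8 CPM in the SH, and was 2.47-fold higher in the RT (edgeR's adjusted p = 0.00205). Both were abundant in every root library, and they differed between RT and DT in opposite directions.

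transcript133917, the last member by score, had 625, 732 and 724 CPM in the RT and 846, 847 and 857 CPM in the DT, with the highest SH level of the set at 70.0, 86.5 and 95.6 CPM. It did not pass the test between RT and DT (log2 fold change -0.29, edgeR's adjusted p = 0.186), and its interval, from -0.69 to 0.11, lay within 2-fold. transcript126372 and transcript139997 were higher in the DT, by log2 fold changes of -2.61 and -1.34 of RT over DT.

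The call of transcript22785, with 136, 239 and 137 CPM in the RT and 85.5, 48.8 and 27.8 CPM in the DT (log2 fold change 1.67, edgeR's adjusted p = 0.0201), was lost without DT replicate 2 (adjusted p = 0.0646), DT replicate 3 (0.0567) or RT replicate 2 (0.0744). Over its alternatives the adjusted p lay between 0.00503 and 0.0744. Conversely, transcript27714 passed without DT replicate 3 (adjusted p = 0.00797) or RT replicate 2 (0.0482), within a range up to 0.345, and transcript47385 passed without DT replicate 3 (0.0488), within a range up to 0.437. transcript104606 passed with limma voom (adjusted p = 0.0296), with the RT and DT libraries alone (0.0181) and without SH replicate 1 (0.0156), within a range up to 0.283.

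In the DT and the SH, single libraries stood apart within the set more often than elsewhere. The score used the lowest root library and the highest SH library, so these shares are a description and no test. DT replicate 1 was the highest DT library for 134 members, 67.0% against 46.1% of transcripts at 5 CPM, and DT replicate 3 was the lowest for 141, 70.5% against 43.3%. The ratio of DT replicate 1 to DT replicate 3, with 0.5 added to each CPM, had a median of 1.54 over members and 1.04 over the other transcripts at 5 CPM. DT replicate 1 was the highest DT library in 58 of the 77 members higher in the DT, 75.3% against 32.1% of the other transcripts at 5 CPM with that call. The gap was smaller for the rest: 33 of the 44 members higher in the RT, 75% against 57.0%, and 43 of the 79 that did not pass, 54.4% against 46.9%. Without DT replicate 1 in the fit, 73 members were higher in the DT and 45 in the RT. The members were still those chosen with it, and the shares among other transcripts in that fit are not given.

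In the RT, replicate 3 was the highest library for 46 of the 77 members higher in the DT. This was 59.7%, against 13.1% of the other transcripts at 5 CPM with that call. Those others were about as concentrated in another library: RT replicate 1 was the highest for 61.0% of them, against 19.5% of these members. For the 44 members higher in the RT, replicate 3 was the highest for 16, 36.4% against 36.8%. Over all members RT replicate 3 was the highest for 82, or 41.0% against 24.9% of transcripts at 5 CPM. RT replicate 1 was the highest for 25.5% against 48.6%, and RT replicate 3 the lowest for 22.5% against 51.8%. In CPM the RT libraries were thus more evenly split among members than among those transcripts. The TMM factor was 1.25 for RT replicate 1 and 1.01 for RT replicate 3. With TMM-scaled values RT replicate 3 was the highest for 108 members, and the share among other transcripts was not taken on that scale.

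**Figure D5:**
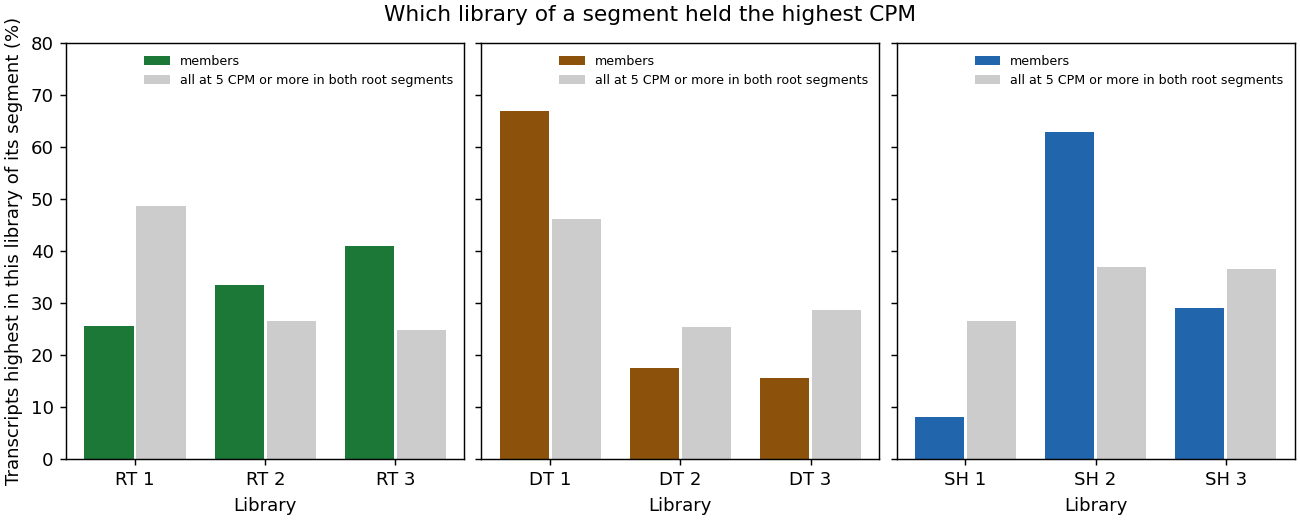
Share of transcripts whose highest CPM within a segment fell in each library, for the 200 members (coloured bars) and for the 14876 transcripts with at least 5 CPM in both root segments (grey bars). DT 1 held the highest value for 67.0% of members and SH 2 for 63.0%.

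The remaining SH signal was also uneven. The score used the highest SH library, and the members lay far below the transcripts at 5 CPM in SH level. Medians of the SH libraries were 0.553 to 1.06 CPM for members and 21.5 to 23.1 CPM for those transcripts. The part of either in the shares below was not tested. The median SH level of a member was 0.979% of its root mean in SH replicate 1, 2.04% in SH replicate 2 and 1.55% in SH replicate 3. SH replicate 2 was the highest SH library for 126 members, 63.0% against 37.0% of transcripts at 5 CPM, and SH replicate 1 the lowest for 141, 70.5% against 48.7%. With TMM-scaled values these were 129 and 125 members, with no share among other transcripts taken on that scale. The ratio of SH replicate 2 to SH replicate 1 had a median of 1.36 over members and 1.04 over the others. By direction, SH replicate 2 was the highest in 59 of the 77 members higher in the DT. It was the highest in 25 of the 44 members higher in the RT. These were 76.6% and 56.8%, against 42.3% and 29.7% of the other transcripts at 5 CPM with the same call. SH replicate 3 was the highest in 11 of the members higher in the DT, 14.3% against 33.7%. Of those higher in the RT it was the highest in 18, 40.9% against 44.4%. The labels describe the SH as free of roots, and the part of single SH libraries in these levels was not tested beyond leaving them out. Without SH replicate 2 the rule kept 402 transcripts before the limit, against 384 with it, and 185 of the 200 members remained among the first 200.

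Some features that the rule did not use were examined for the set. Estimated counts lay more than 1e-06 from a whole number in at least 1 library for 83 members, 41.5% against 36.3% of transcripts at 5 CPM, and in all 9 libraries for 19, or 9.50% against 8.93%. kallisto divides reads among similar transcripts, so the values of these members depend on that division, to about the same extent as for transcripts at 5 CPM. Those were not matched on abundance: their mean root level had a median of 32.0 CPM, against 48.6 CPM for members.

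Members also clustered by transcript number. The table holds 208 transcripts whose number is next to that of a member, and 14 of them, or 6.73%, were members themselves, while members made up 0.691% of the table. They formed 7 neighbouring pairs. Both transcripts were called in the same direction in 5 pairs, including transcript103687 with transcript103688 and transcript122681 with transcript122682. In 1 pair neither was called. In the remaining pair, named after its values were seen, the calls were opposite. transcript92759 had 101, 135 and 113 CPM in the RT and 67.1, 48.5 and 36.7 CPM in the DT, while transcript92760 had 23.8, 55.6 and 55.6 CPM in the RT and 262, 302 and 243 CPM in the DT. Whether neighbouring numbers belong to 1 gene was not tested, since no sequences were used here, so the members are counted as transcripts and not as genes.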

How the data were processed

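The authors checked reads with FastQC 0.11.2, trimmed them with Trimmomatic 0.32, assembled all libraries with Trinity, reduced the assembly with CD-HIT and Compacta, counted reads with kallisto 0.44.0 and removed transcripts with low counts. The deposited table holds estimated counts, with neither depth nor length taken out, although its name speaks of TPM. No genome build applies, and 0 transcript numbers matched the reference gene table, so no sequence or position is given.

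CPM for choosing and describing members used the counts as deposited over the sum of each library. For tests, these values were rounded, scaled with TMM factors and fitted with edgeR's quasi-likelihood model, with 1 coefficient per segment over all 9 libraries (R 4.3.3, edgeR 4.0.16, limma 3.58.1, DESeq2 1.42.0). The Benjamini-Hochberg adjustment ran over all 28952 transcripts. Standard errors are the fold change over the square root of F, and intervals use the t distribution. The fit was tested on simulated data, with an outcome that is not reported here. Libraries of a segment differed by far more than sampling noise (chi-square averaged over transcripts, 20.2 to 90.9 between pairs). At totals of 20065804 to 27376687 counts, SH values of a few counts are imprecise.

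Members named are the 10 with the largest score, the 5 most changed in each direction, the 5 most abundant, the 5 whose interval reaches least far from 0, those at the borders, members without SH counts (none) and members that the study labels. Members and lists were chosen with earlier results of these data known. Alternatives covered the rule, the test, scaling, filtering, a replicate block and each library left out. Holding out a replicate number, and counting calls over members chosen by other forms of the rule, were added after seeing the data.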

Additional observations from a re-analysis of the deposited data

How the results depend on the processing

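The number of transcripts that passed the rule, 384, moved most with its definition: 144 reached a score of 8, and 675 passed when segment means replaced the lowest and highest library. It was 276 with TMM-scaled CPM, which kept 190 of the 200 members. With single libraries left out it lay between 385 and 424, and with a replicate number left out between 421 and 488. With single libraries left out, members higher in the DT numbered 70 to 78 and in the RT 34 to 45, by at least 2-fold 63 to 69 and 30 to 41, and members within 2-fold 27 to 41. The lowest RT count, 34, was without DT replicate 2. DESeq2 gave 82 and 41, limma voom 79 and 51, median-ratio scaling 81 and 38, and a threshold of 0.01 gave 60 and 31. Median-ratio scaling moved the median difference of all transcripts by -0.11 on the log2 scale, and library size alone by 0.01. Members were also chosen by other forms of the rule or without single libraries or replicate numbers. Where 200 were kept, 67 to 90 were higher in the DT and 40 to 52 in the RT. A score of at least 8 kept 144, of which 56 were higher in the DT and 31 in the RT. In all of these settings more members were higher in the DT than in the RT. The shares over all transcripts in the same settings are not given, so these counts do not show the lean against a background. No member called under one of the tests or scalings had the opposite direction in edgeR's fit.

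Same-numbered RT and DT libraries, the segments compared, did not deviate together (correlations from -0.45 to -0.17), so the numbers were not taken to pair them. Same-numbered RT and SH libraries had correlations from 0.11 to 0.34 against -0.32 to 0.14 for other numbers, and these ranges overlap. For same-numbered DT and SH libraries the correlations ran from -0.03 to 0.19. With the replicate block, 72 members were higher in the DT and 42 in the RT, 65 and 33 by at least 2-fold, and 33 were within 2-fold. With 3 libraries per segment and few SH counts, levels under about 1 CPM are poorly resolved.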

Other observations

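The 184 transcripts that passed the rule but fell outside the limit of 200, with scores from 4.00 to 6.49, gave a similar split. Of these, 71 were higher in the DT, or 38.6%, and 35 in the RT, or 19.0%, at an adjusted p of at most 0.05 by edgeR's quasi-likelihood test. The same calls in the DT and RT directions were made for 29.8% and 33.0% of transcripts at 5 CPM, and 27.9% and 29.9% of all. Their log2 fold change of RT over DT had a median of -0.38 and ran from -5.47 to 4.82. They share all libraries with the members, so they are no independent evidence of the split.

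The lowest mean SH level of any member was 0.0366 CPM, in transcript97894, which was singled out after its values were seen. It had 11.7, 12.0 and 12.7 CPM in the RT and 11.6, 16.5 and 9.09 CPM in the DT, and 0, 0.0731 and 0.0367 CPM in the SH, with replicate 1 at 0 counts.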
